A study of Rattus norvegicus with 7 samples.

Results

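The cells described here are NRK-52E cells, an established epithelial line from rat kidney, in the state in which they serve as the control of a gene silencing experiment. The 3 arrays labelled as scrambled control were chosen out of the 7 arrays of the series, and each holds RNA of a separate culture. The series as a whole concerns Adamts16, a secreted metalloprotease linked in rats to inherited hypertension. No array of cells treated against that gene enters any value below. Cells in medium with 10% fetal bovine serum were seeded at 20% confluence, left 6 h to attach, and given a scrambled siRNA at 100 pmol per ml by lipofection. RNA was taken 48 h later. All 3 cultures therefore share the lipid, the siRNA and the serum, and untransfected cells are not analysed here. The line is a single cell culture model without the other cells, flow and hormones of a kidney. The siRNA that all 3 cultures received is shown by its sense strand, because this duplex is the only sequence added to them. The antisense strand is the reverse complement of the sense strand.

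scrambled siRNA, sense strand: cctccaatgtgctcggtaat

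The tubule of the kidney is lined by epithelial cells that differ from segment to segment. Cells of the proximal tubule carry a brush border, take up filtered protein by endocytosis and move glucose, phosphate, amino acids and organic ions, while the thick ascending limb, the distal tubule and the collecting duct each have their own salt and water transporters. Epithelial cells are tied together by cadherins, tight junction proteins and keratin filaments. Mesenchymal cells such as fibroblasts have vimentin filaments and secrete interstitial collagen and elastic fibre proteins. Tubule cells that are injured or kept in culture are known to lose segment genes and to take on some mesenchymal and matrix genes.

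An array gives a signal in arbitrary units for each probe set, a group of short probes for 1 transcript. Each of the 31042 probe sets that are not controls, of 31099 in all, was ranked within its array, and its percentile is the share of probe sets with a signal at or below its own. A gene was taken at its brightest probe set, which gave 14217 genes with a symbol. The percentiles below are means over the 3 arrays. A gene is called top where it lay above percentile 90 on all 3 arrays, high above 60 on all 3 (the top genes included), low below 40 on all 3, and between otherwise. Of all genes 15.5% were top, 53.4% were high and 27% were low, and the median gene lay at percentile 64.6. The median gene lies above the middle of the array, since the brightest probe set of each was taken and probe sets without a symbol are ranked too. Probe sets bind their transcripts with unequal strength, so a percentile places a gene on the array and neighbours in rank are not ordered by transcript number. Since a culture is measured whole, fewer cells with a transcript and less of it per cell cannot be told apart.

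The 4 genes given as markers of these cells were all in the top class. Vim, the intermediate filament protein vimentin of mesenchymal cells, gave signals of 10947, 11322 and 11178, at percentile 99.5. Spp1, the secreted phosphoprotein osteopontin, gave 11719, 12439 and 11277, at percentile 99.5. Sparc, a secreted protein that binds collagen, gave 11559, 12553 and 11779.6, at percentile 99.5. Adamts1, a secreted metalloprotease that cuts proteoglycans, gave 6309, 6435 and 6305, at percentile 98.5. For each of the 4 the arrays lay close together, and none came near the rest of the range. The second probe set of Sparc gave 6146, 6347 and 7406, again in the top class. Adamts16, the gene the series was built around, lay at the other end with signals of 8.68, 7.18 and 18.9 and percentile 13.5. Its mean signal of 11.6 ± 6.37 (SD, n = 3) lay within the range of the control probe sets named trpn, 1.06 to 16.9, and replicate 3 was the highest.

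The 250 bases before the annotated start of the 4 marker genes are shown because their letters differ widely although all 4 genes lay in the top class. They are RefSeq sequences of the build GRCr8, 5′ to 3′ on the strand of the gene. Capitals mark TATAAA and CCAAT, searched on both strands (TTTATA and ATTGG are their reverse), and no 2 matches overlap.

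Vim, chr17:81577011-81577260, plus strand: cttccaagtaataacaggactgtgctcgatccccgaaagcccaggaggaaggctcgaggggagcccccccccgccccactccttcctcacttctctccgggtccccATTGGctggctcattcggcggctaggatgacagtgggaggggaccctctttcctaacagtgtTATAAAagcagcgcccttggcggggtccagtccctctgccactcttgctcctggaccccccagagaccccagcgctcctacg

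Spp1, chr14:5619805-5620054, minus strand: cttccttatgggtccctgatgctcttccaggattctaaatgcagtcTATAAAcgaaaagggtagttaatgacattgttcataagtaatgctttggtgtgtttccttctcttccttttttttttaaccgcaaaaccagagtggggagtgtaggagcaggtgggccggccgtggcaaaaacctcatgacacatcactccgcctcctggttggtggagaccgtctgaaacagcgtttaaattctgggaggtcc

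Sparc, chr10:40038817-40039066, minus strand: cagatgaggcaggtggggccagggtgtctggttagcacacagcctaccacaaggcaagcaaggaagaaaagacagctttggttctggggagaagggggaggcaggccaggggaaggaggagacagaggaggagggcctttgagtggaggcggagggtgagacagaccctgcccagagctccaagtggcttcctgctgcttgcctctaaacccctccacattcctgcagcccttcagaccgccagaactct

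Adamts1, chr11:38427385-38427634, minus strand: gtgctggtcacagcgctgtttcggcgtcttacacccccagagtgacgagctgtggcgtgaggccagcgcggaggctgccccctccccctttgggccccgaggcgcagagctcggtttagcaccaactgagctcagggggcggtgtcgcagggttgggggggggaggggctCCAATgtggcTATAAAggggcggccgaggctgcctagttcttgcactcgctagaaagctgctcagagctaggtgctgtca

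The stretch of Adamts1 holds 15 CG pairs, that of Vim 11, that of Spp1 7 and that of Sparc 2. Vim has ATTGG 144 bases and TATAAA 82 bases before its annotated start, and Adamts1 has CCAAT at 80 and TATAAA at 70. Spp1 has TATAAA at 204, and Sparc has neither motif in this window. Over the 300 bases from 250 before to 50 after the start, the median promoter of a top gene had 23 CG pairs. That of a high gene below the top class had 22 and that of a gene between the classes 18. The median over all 11700 measured genes with a promoter was 19. TATAAA stood on either strand in 7.78%, 5.23% and 7.98% of these promoters, and in 8.45% of those of all 11700 measured genes. Of all 27457 promoters of the table, which include genes not measured here, 14.3% had it. CCAAT stood in 38.3%, 38.8% and 36.1% of the promoters of these classes. It stood in 37.3% of those of all measured genes and in 37.7% of all promoters of the table. Promoters were found for 84.7%, 84.4% and 81.6% of the genes of these classes. For the low class only 78.5% had one, so that the check is void there, and its values are not given.

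The brightest transcripts of the cells were those of protein synthesis, of mitochondria, of the cytoskeleton and of collagen. Genes whose symbol starts with LOC or RGD and digits were left out of this ranking. Among the 30 genes with the highest mean percentile, 17 code for ribosomal proteins, 2 for elongation factors of translation and 2 for mitochondrial subunits of cytochrome c oxidase. COX1, which the mitochondrial genome encodes, gave 22568, 23418 and 24248. COX2, its partner subunit, gave 22435, 23964 and 23969.7. Tspan8, a membrane protein of the tetraspanin family found in many epithelia and carcinomas, gave 20376, 21613 and 22680.3 and was the brightest gene outside these groups. The other 8 were Actg1 (cytoplasmic gamma-actin), Col3a1 and Col5a2 (chains of fibril collagens), S100a6 (a calcium-binding protein), Anxa1 (annexin A1), B2m (the light chain of class I molecules), Mfap5 (a protein of elastic microfibrils) and Lgals1 (galectin 1). Col3a1 gave 19051, 19931 and 19209.8. Col5a2 gave 18731, 19515 and 19614. S100a6 gave 17949.6, 19387 and 19219, and Anxa1 gave 17548, 17934 and 18055. The probe sets of these collagen, S100 and annexin genes were as bright as those of ribosomal proteins such as Rpl5, with 17152, 19757 and 20638.

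The 100 brightest probe sets held 8.22 ± 0.28% (SD, n = 3) of the summed signal of an array. Among the ribosomal proteins, 39 of 47 genes were top (83.0% against 15.5% of all genes) and 2 were low. Rpl3l, the form of striated muscle, lay at percentile 34.4. In the respiratory chain 63 of 77 genes were top (81.8%), led by Cox6c at 99.5 and Cox4i1 at 99.4. The 5 low genes were Cox7b2, Cox4i2, Cox6a2, Cox6b2 and Cox8b, tissue-restricted forms of subunits known from muscle, lung or testis. All 36 of 36 proteasome genes were high, against 53.4% of all genes. The interferon-inducible subunits Psmb8, Psmb9 and Psmb10 were the lowest of them, at 69.9, 71.4 and 71.99. Of 57 genes with symbols of translation factors, the kinases Eef2k and Eif2ak1 included, 56 were high (98.2% against 53.4% of all genes). Eef1a2, the form of muscle and neurons, was the exception at 44.4. The 5 brightest probe sets without a gene symbol were 1375340_at, 1388159_at, 1375651_at, 1375108_at and 1367597_at. The first gave 19669, 21589 and 21818 and the last 16791, 18595 and 18255, as bright as the named genes above.

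Genes of epithelial junctions and polarity were found in the top class and in the low class. Of the 41 measured members 11 were top, 26.8% against 15.5% of all genes. High members numbered 23, 56.1% against 53.4%, and low members 11, 26.8% against 27%. The high and low shares lay near those of all genes, while the top share lay above. The list also differed in which members stood where. The bright members bind cadherins to actin or build the tight junction and the basement membrane. Ctnna1 (alpha-catenin) gave 11399, 12147 and 12256. Ctnnb1 (beta-catenin) gave 9428, 9675 and 12074, with replicate 3 the highest. Tjp1 (the tight junction scaffold ZO-1) gave 6161, 6487 and 6499.5. F11r (junctional adhesion molecule A) gave 4541, 4579 and 4376, and Lama5, a chain of epithelial laminins, gave 7357, 7859.7 and 8027. Other probe sets of Lama5 lay at percentiles 12.4 and 23.6, and another of Ctnnb1 lay at 5.10. The polarity genes Prkci (94.5), Pard6b (92.5) and Pals1 (90.6) and the junction protein Jup (95.00) followed, and Ocln (occludin) lay at 70.04.

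The cadherin that defines most epithelia was low. Cdh1 (E-cadherin) gave 9.67, 3.78 and 1.95, and its second probe set gave 0.394, 3.97 and 7.64. Epcam, the epithelial cell adhesion molecule, gave 19.4, 32.4 and 5.35. Cdh16, the cadherin of kidney tubules, gave 11.7, 11.3 and 10.1. The 3 genes were low on all arrays, as were the desmosomal cadherins Dsg2 (5.91) and Dsc2 (12.7), the tight junction scaffold Tjp3 (13.4) and the polarity gene Crb3 (24.8). Cdh3 (P-cadherin) was the only 1 of 16 cadherins in the high class, with signals of 2479, 2102 and 2641 and percentile 93.6. Cdh2 (N-cadherin), the usual cadherin of mesenchymal cells, gave 51.9, 44.6 and 52.5, and its other probe sets lay at percentiles 30.6 and 28.7. Thus 11 of the 16 cadherins were low, 68.8% against 27% of all genes. Among 16 claudins, the strand proteins of the tight junction, Cldn12 alone was high, with 743, 512 and 616. The high share of claudins was 6.25% against 53.4% of all genes. Cldn1 (38.2), Cldn2 (18.2), Cldn3 (20.2), Cldn4 (15.2) and Cldn7 (5.18) were not.

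Among 23 keratins Krt8 alone was high, 4.35% against 53.4% of all genes. Krt8, the type II keratin of simple epithelia, gave 5698, 5940.1 and 6251. Krt18, the type I keratin with which it pairs in filaments, gave 14.6, 18.2 and 10.99, and Krt19, another type I partner, gave 87.5, 109 and 118. Each is measured by a single probe set, so for Krt18 a weak probe set and a low transcript cannot be told apart. Of 9 epithelial regulators of transcription and splicing, Klf5, a zinc finger factor, was the only gene above percentile 60 on all 3 arrays, with 5457, 5857 and 6572 and percentile 98.3. This made the high share 11.1% against 53.4% of all genes. Grhl1, with 291, 296 and 238, was also high without replicate 3 or by its mean percentile of 60.8, which makes 2 high genes. With high set above percentile 50 there were 3, Tfcp2l1 (55.4) included. The low genes were Esrp1 (34.3), an epithelial splicing factor, Cdx1 (29.6), Hnf4a (22.3), Foxa1 (16.4) and Ehf (3.596). Elf3 spanned 13.2, 98.4 and 83.6, which put it between the classes.

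**Figure D1:**
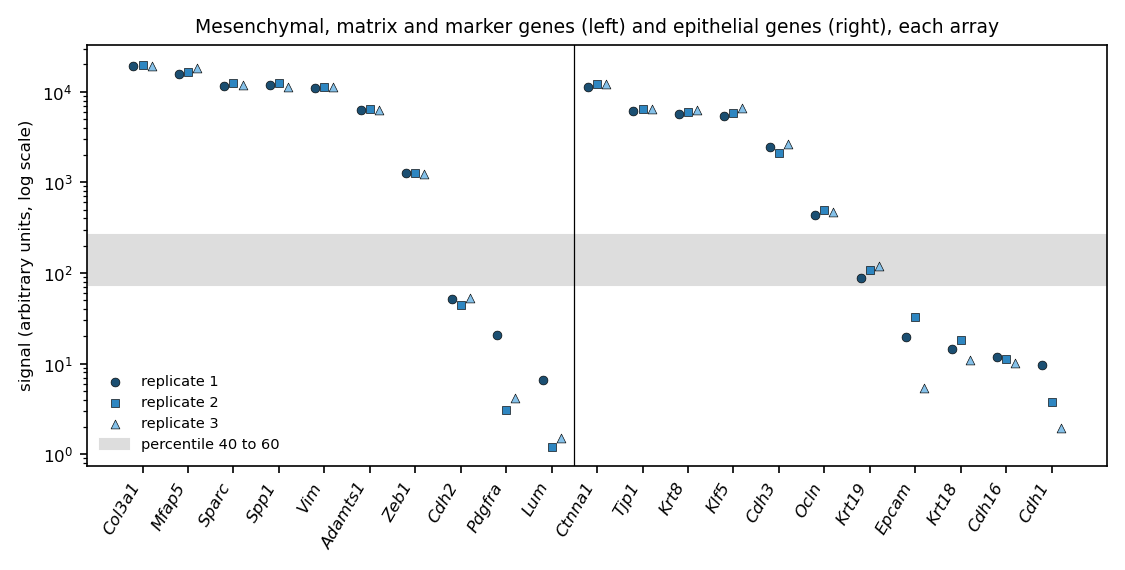
Signal on each of the 3 scrambled control arrays (vertical axis, arbitrary units on a log scale; 1 symbol per array) for mesenchymal, matrix and marker genes on the left and epithelial genes on the right. The grey band spans the signals at percentiles 40 to 60; Vim, Spp1, Sparc, Adamts1, Krt8 and Cdh3 lie above it on every array, while Cdh1, Epcam, Cdh16, Krt18, Cdh2, Pdgfra and Lum lie below it on every array.

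Genes of mesenchymal filaments, contraction and matrix were likewise found in both the top class and the low class. Of 37 members 14 were top, 37.8% against 15.5% of all genes, 19 were high and 11 low. Vim and Sparc, given as markers of these cells, are among the 14 top genes, and the list was chosen with earlier results known. The high share, 51.4%, and the low share, 29.7%, lay near the 53.4% and 27% of all genes. Besides Vim and Sparc, Mfap5 gave 15631, 16586 and 18079. Lgals1 gave 15630.4, 17741 and 17164. Lox, the oxidase that cross-links collagen and elastin, gave 14133, 14460.2 and 14835. The tropomyosins Tpm1 (99.4), Tpm4 (99.02) and Tpm2 (97.2), the calcium-binding protein S100a4 (98.3), Postn (97.02) and Fn1 (95.6) were top as well. Acta2 (smooth muscle actin) lay at 80.9 and Tagln (transgelin) at 88.6, high but below the top class. Myl9 (49.8) and Des (51.6) lay in the middle of the range.

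Several genes by which fibroblasts are recognised were low in the same cells. Pdgfra, the platelet-derived growth factor receptor of fibroblasts, gave 20.6, 3.04 and 4.18. Lum (lumican), a secreted proteoglycan, gave 6.54, 1.21 and 1.499, and Thy1, a surface protein, gave 14.2, 47.8 and 28.98. Dcn (decorin) lay at 25.04 and Fap at 28.4. Of the 19 fibroblast and pericyte genes 4 were top (Col3a1, Mfap5, Postn and Col1a1) and Col1a2 was high. Another 8 were low, or 3 with low set below percentile 30. The shares were 21.1% top, 26.3% high and 42.1% low, against 15.5%, 53.4% and 27% of all genes. Col1a1, a chain of type I collagen, gave 2358, 2277 and 2735. Col1a2, the chain that joins it in the same fibril, gave 339.7, 303 and 288. Of 16 mesenchymal transcription factors 8 were low and 5 high, 50% and 31.25% against 27% and 53.4% of all genes. With the low class set below percentile 30, 4 were low. Srf, the factor that drives genes of actin filaments, gave 1862, 1739 and 1697. Zeb1, a repressor of Cdh1, gave 1263, 1258 and 1248. Foxf1 (67.6), Tbx18 (66.5) and Snai1 (62.5) were high as well, while Twist1 (39.8) lay at the edge of the low class and Twist2 (33.1), Zeb2 (28.9) and Prrx1 (13.05) were low. So the arrays show junction plaque proteins, Krt8 and Cdh3 together with Vim, Lox and fibril collagens, while Cdh1 and Pdgfra were low.

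Genes that define the segments of the nephron were mostly low. Over the 5 segment lists together, 81 of 130 genes were low (62.3% against 27% of all genes), 20 were high and 8 were top, with a median percentile of 28.8 against 64.6. The labels call the line kidney epithelial without naming a segment. Of 36 proximal transporters 25 were low and 4 high, 69.4% and 11.1% against 27% and 53.4% of all genes. Slc16a1, a lactate and pyruvate carrier present in most tissues, gave 8393, 8758 and 8849.9, while its other probe set lay at percentile 20.7. Slc26a6, an anion exchanger of the brush border, gave 670.3, 673 and 690.0. Abcc4, an exporter of organic anions, gave 415, 376 and 343, and Aqp1, the water channel of the proximal tubule, gave 269, 378 and 299. The cystine transporter subunits Slc7a9 (58.3) and Slc3a1 (53.7) and the bicarbonate transporter Slc4a4 (56.2) lay just under the high class.

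Several of the best known carriers of the proximal tubule were low. Slc34a1, the phosphate transporter, gave 20.6, 25.4 and 68.9, and its second probe set lay at percentile 17.3. Slc5a2, the glucose transporter of the early proximal tubule, gave 14.2, 15.1 and 18.5. Slc2a2, the basolateral glucose transporter, gave 2.04, 16.1 and 2.08. No array of these 3 genes reached the signal of percentile 40, which lay between 73.8 and 76.1. The organic ion carriers Slc22a6 (9.03) and Slc22a12 (14.7), the sodium proton exchanger Slc9a3 (23.7) and the multidrug exporter Abcb1a (15.6) were low too. Slc22a8 (40.9) and Slc22a2 (36.2) lay between the classes.

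Of 36 proximal genes of endocytosis, brush border and metabolism 6 were high and 20 low. These shares were 16.7% and 55.6%, against 53.4% and 27% of all genes. The high genes described here are Ezr, Nherf1, Dab2 and Enpep, and the others of the 6 are not described. Ezr (ezrin), which ties microvilli to actin, gave 8588, 8794 and 9101. Nherf1, a scaffold of the brush border, gave 5089.7, 5375 and 4984. Dab2, an adaptor of endocytosis, gave 3931, 3946 and 3933. All 3 are found in other epithelia too. Enpep, the aminopeptidase that cuts angiotensin, gave 808, 911 and 995, while its other probe set lay at percentile 1.89. Ggt1, the gamma-glutamyl transferase of the brush border, gave 303, 344 and 257, just under the high class on the lowest array. Of the endocytic receptors Lrp2 (megalin) gave 67.4, 96.9 and 111 and Cubn (cubilin) gave 23.5, 6.15 and 4.57. The alkaline phosphatase Alpl lay at 4.38, the gluconeogenic enzymes Fbp1 and Pck1 at 17.7 and 30.4, and the angiotensin-converting enzyme Ace at 22.5. Alpl, Upb1 (3.65) and Dpys (3.07) were the lowest of the list.

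The thick ascending limb left the fewest traces, since none of its 15 genes was high. Low genes numbered 12 (80.0% against 27% of all genes). Umod (uromodulin), the main protein it secretes into urine, gave 23.7, 13.6 and 10.7. Slc12a1, its sodium chloride transporter, lay at 13.4, and its potassium channel Kcnj1 gave 8.94, 0.928 and 1.54. Cldn19 at 51.2 and Egf at 41.8 were the brightest of the list. The distal list held low, middle and high genes. Slc12a3, the thiazide-sensitive transporter, lay at 17.4, Calb1 (calbindin) at 17.6, Pvalb (parvalbumin) at 5.38 and Kl (klotho) at 11.05. Trpv5, the calcium channel of the segment, lay between the classes at 57.8, as did Cnnm2 (51.2), Klhl3 (41.3) and Stk39 (38.3). The other probe set of Trpv5 lay at 15.4. Wnk1, a kinase that controls chloride transporters, gave 3265, 3537 and 3667 at its brightest probe set. Other probe sets of Wnk1 lay at percentiles 85.4, 41.4, 26.3 and 15.3. Cul3, the ubiquitin ligase scaffold that degrades such kinases, gave 3397, 3245 and 3289. With Atp2b1 (85.03), Oxsr1 (78.6), Slc8a1 (65.4) and Atp2b4 (63.01) they made up the 6 high genes of 16, and 6 were low. Both shares were 37.5%, against 53.4% and 27% of all genes.

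Collecting duct genes were low in 18 of 27 cases, 66.7% against 27% of all genes. Aqp2, the water channel under the control of vasopressin, gave 9.52, 12.8 and 9.43. The vasopressin receptor Avpr2 lay at 28.8, and the sodium channel subunits Scnn1a, Scnn1b and Scnn1g at 30.7, 43.8 and 32.3. Foxi1 (19.8) and Slc4a1 (25.1) of the intercalated cells were low as well. The 4 high genes (14.8% against 53.4% of all genes) were Krt8, Sgk1, Nedd4l and Gata3. Sgk1, a kinase induced by corticosteroids and serum, gave 1966, 2034 and 2079. Nedd4l, the ubiquitin ligase that removes the sodium channel, gave 479, 537 and 499.7. Gata3, a transcription factor of the ureteric bud and its descendants, gave 339, 312 and 303. Podocyte genes were represented by Cd2ap (98.99), Actn4 (91.1) and Synpo (86.5), which link membranes to actin, while Nphs1 (nephrin) gave 15.3, 2.33 and 30.7 and Ptpro lay at 22.9.

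**Figure D2:**
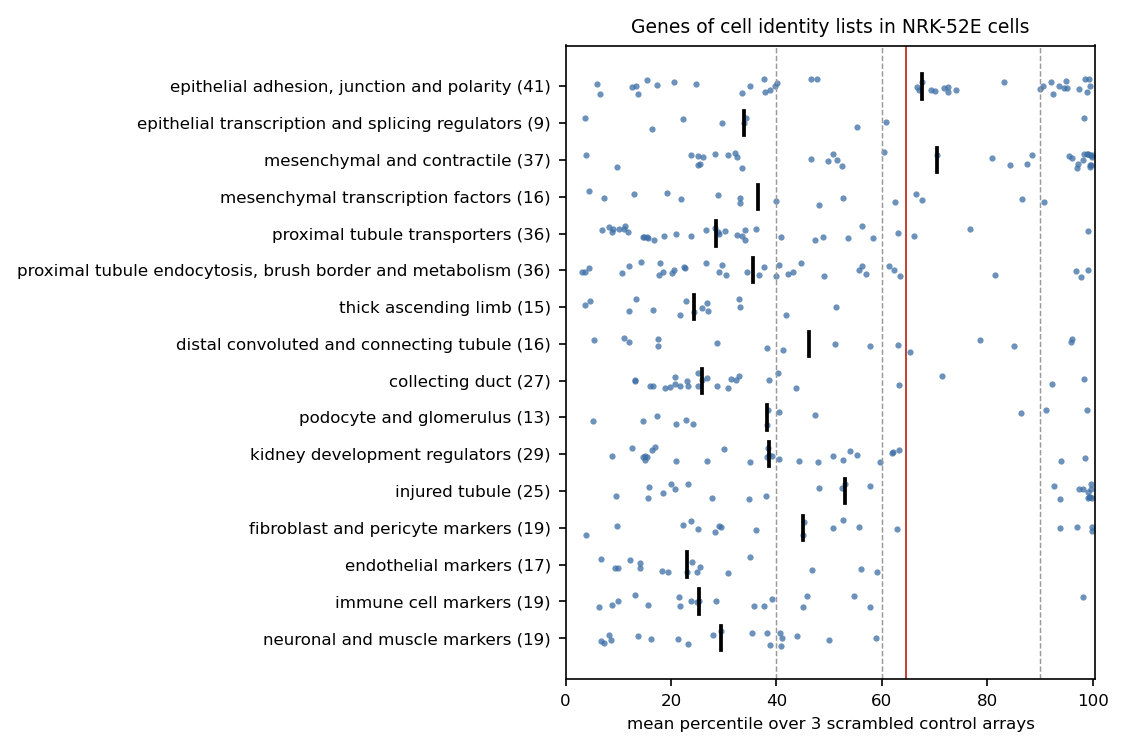
Mean percentile over the 3 scrambled control arrays (horizontal axis, percent of probe sets) of every measured gene of 16 lists; each point is a gene, the number of genes stands in brackets, black bars are list medians, dashed lines mark percentiles 40, 60 and 90 and the red line the median of all genes (64.6). The medians of the thick ascending limb (24.4) and collecting duct (25.9) lie left of percentile 40 and those of the epithelial adhesion (67.7) and mesenchymal (70.4) lists right of 60.

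Of 29 regulators of kidney development 5 were high (17.2% against 53.4% of all genes), 14 between and 10 low. Hes1, a target of Notch signalling, gave 6179.6, 6426 and 6449. Cited2, a transcriptional co-regulator, gave 2614, 2449.9 and 2376. Emx2, a homeobox factor of the ureteric bud, gave 313, 289 and 284, and Wnt4, a signal for tubule formation, gave 297, 279.8 and 299, both near the lower edge of the high class. Pax2, a factor of nearly all developing nephron epithelia, gave 13.7, 15.7 and 11.3. Pax8, its relative, gave 64.8, 32.5 and 84.8, with its second probe set at percentile 12.3. Ret (8.83), the receptor of the ureteric bud tip, Sall1 (16.4) and Wt1 (38.4) were not high. Of 22 Hox genes, which record position along the body axis, 12 were high, 54.5% and near the 53.4% of all genes, and 3 were low. Hoxa9 gave 4751, 4701 and 4830.4. Hoxa10 gave 4271, 4687 and 4782. Hoxa11, a regulator of kidney and limb development, gave 1629, 1655 and 1451. Hoxb13, the most posterior gene of its cluster, gave 5.75, 13.7 and 7.88 and was the lowest.

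Genes that rise in injured tubules were divided between the highest and the lowest ranks. Of 25 members 11 were top (44.0% against 15.5% of all genes) and 9 low (36.0% against 27%). Spp1, given as a marker of these cells, is among the 11 top genes. No further member was high, so the high share was 44.0% against 53.4%. Timp2 and Timp1, inhibitors of metalloproteases, gave 13464, 14466 and 14745 and 9914, 10434 and 10851. Anxa2 (annexin A2) gave 12668, 13359 and 14774, while its other probe set lay at percentile 37.2. Clu (clusterin), a secreted chaperone, lay at 99.2, the chemokine Cxcl1 at 98.2, Sox4 at 97.4, Hbegf at 93.8 and the adhesion molecule Icam1 at 92.8. Havcr1, the injury molecule KIM-1, gave 10.2, 8.27 and 66.8, so that replicate 3 stood above the other two and still below percentile 40. Vcam1 gave 10.3, 8.84 and 2.95. Lcn2 (lipocalin 2) lay at 57.7, Ccl2 at 53.1 and Cd44 at 52.4, all between the classes.

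Of 302 solute carriers 112 were high, 37.1% against 53.4% of all genes, and 116 low, 38.4% against 27%. The brightest were the mitochondrial phosphate carrier Slc25a3 with 8892, 9519 and 9514 and the ADP/ATP carrier Slc25a4 with 8811, 9277 and 9154. Slc38a2, an amino acid transporter of most cells, gave 8159.8, 8556 and 8424. Slc6a6 (taurine, 95.8), Slc12a2 (sodium, potassium and chloride, 93.3), Slc20a1 (phosphate, 91.6), Slc40a1 (iron export, 90.8), Slc3a2 (the heavy chain of amino acid exchangers, 89.8) and Slc2a1 (glucose, 85.7) were high too. Thus the glucose carrier and phosphate carrier found in most cells, Slc2a1 and Slc20a1, were high where Slc5a2, Slc2a2 and Slc34a1 were low. The lowest solute carriers were Slc17a2 (2.77), Slc4a10 (2.01) and Slc22a3 (1.22). Among 36 ATP-binding cassette genes 15 were high (41.7% against 53.4% of all genes) and none was top. Abce1, Abcf1 and Abcf3, which act at ribosomes and transport nothing, were among the brightest, at 90.4, 86.5 and 82.1. Abcc5 (86.4) and Abcc1 (70.8) were high exporters, and Abcc2 (28.3) was low.

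Subunits of the sodium pump and of the proton pump were among the top genes. Atp1b1, the beta subunit of the sodium pump, gave 9365, 9921 and 10169. Fxyd3, a small regulator of the pump, gave 6597, 7644 and 7551. Fxyd2, the gamma subunit typical of kidney tubules, gave 6.98, 17.3 and 6.35 and was low. Of 44 pump genes 14 were top (31.8% against 15.5% of all genes). Most of them were subunits of the proton pump of lysosomes such as Atp6v0c (98.3) and Atp6v1a (96.2). The proton pump subunits of intercalated cells, Atp6v1b1 (32.9), Atp6v0a4 (23.04) and Atp6v1g3 (18.8), were low. Of 75 potassium channel genes 5 were high and 51 low, 6.67% and 68.0% against 53.4% and 27% of all genes. Kcnmb4, a subunit of a calcium-activated channel, gave 1126, 1141 and 1224, and Kcnk6, a leak channel, gave 597, 616 and 667. Of 69 sodium, chloride, calcium and TRP channel genes 10 were high (14.5%). Clic4 (99.4), Clic1 (98.5), Pkd2 (polycystin 2, 94.9), Trpm7 (91.97) and Clcn3 (91.6) were the brightest. Pkd1 (polycystin 1) lay at 55.8. Of 10 aquaporins Aqp1 alone was high (10.0%) and 8 were low (80.0%).

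Receptors for vasoactive agents and hormones were mostly low. Of 71 vasoactive and hormone receptors 56 were low (78.9% against 27% of all genes) and 5 high (7.04% against 53.4%). F2r, the thrombin receptor PAR1, gave 5435, 5641 and 5730.1. Atp6ap2, the prorenin receptor and a part of the proton pump, gave 3314, 3373 and 3419. F2rl1, the protease receptor PAR2, gave 994, 917 and 769. The sphingosine 1-phosphate receptors S1pr2 and S1pr5 gave 628, 662 and 684 and 377, 524 and 498. The angiotensin receptors Agtr1a and Agtr1b lay at 23.5 and 26.4, with Agtr2 at 42.5. Pth1r, the parathyroid hormone receptor of the proximal tubule, gave 32.8, 59.6 and 30.3. The dopamine receptor Drd1 (18.9), the bradykinin receptor Bdkrb2 (25.99) and the natriuretic peptide receptor Npr1 (7.25) were low, and P2ry2, a nucleotide receptor, was lowest with 2.36, 1.32 and 2.75. Receptors of this kind often have few transcripts, and a low rank is not a measure of the receptor on the cell.

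Of 43 receptor tyrosine kinases 14 were high and 20 low, 32.6% and 46.5% against 53.4% and 27% of all genes. Egfr, the epidermal growth factor receptor, gave 4611, 4535 and 4725 at its brightest probe set, while another of its 3 probe sets lay at percentile 38.3. Fgfr3, a fibroblast growth factor receptor, gave 2108, 1939.8 and 1968. Ddr1, a collagen receptor of epithelia, gave 1659, 1618 and 1715. Igf1r (85.4), Epha2 (75.9), Erbb2 (71.5), Met (64.04) and Insr (61.3) were high too. Ddr2 (46.5), the collagen receptor of mesenchymal cells, and Axl (36.4) lay between the classes, and Erbb4 (4.45) and Epha5 (1.11) were low. Of 36 cytokine and TGF-beta family receptors 18 were high, a share near that of all genes, and 7 were low. Il11ra1, the interleukin 11 receptor, gave 3287, 3229 and 3275. Il6st, the signalling chain it shares with the interleukin 6 receptor, gave 3193, 3233 and 2678. Tnfrsf12a (95.5), Tnfrsf1a (91.4), Tgfbr1 (85.8) and Bmpr1a (85.6) were high, and the endothelial receptor Acvrl1 (8.83) was low.

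Nuclear receptors lay between percentiles 5.35 and 96.1, with 13 of 42 high and 14 low. These shares were 31.0% and 33.3%, against 53.4% and 27% of all genes. Nr2f2, an orphan receptor frequent in mesenchyme, gave 3558, 3354 and 3533. Nr4a1, an early response gene, gave 2739, 2769.8 and 2470.2. Nr3c1, the glucocorticoid receptor, gave 2418, 2353 and 2269.9. Nr3c2, the mineralocorticoid receptor, lay at 23.2, and Hnf4a and Ppara, receptors of proximal tubule metabolism, at 22.3 and 9.35. Thus the glucocorticoid receptor was top while the mineralocorticoid receptor was low. Integrins, the receptors for matrix, were led by Itgb1 with 8885, 9705 and 9360.5, the beta chain shared by most of them. Its alpha partners Itga3 (93.7), Itga6 (91.5) and Itgav (90.9) were top, and Itgb6 (18.5) and Itga8 (22.7) were low.

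**Figure D3:**
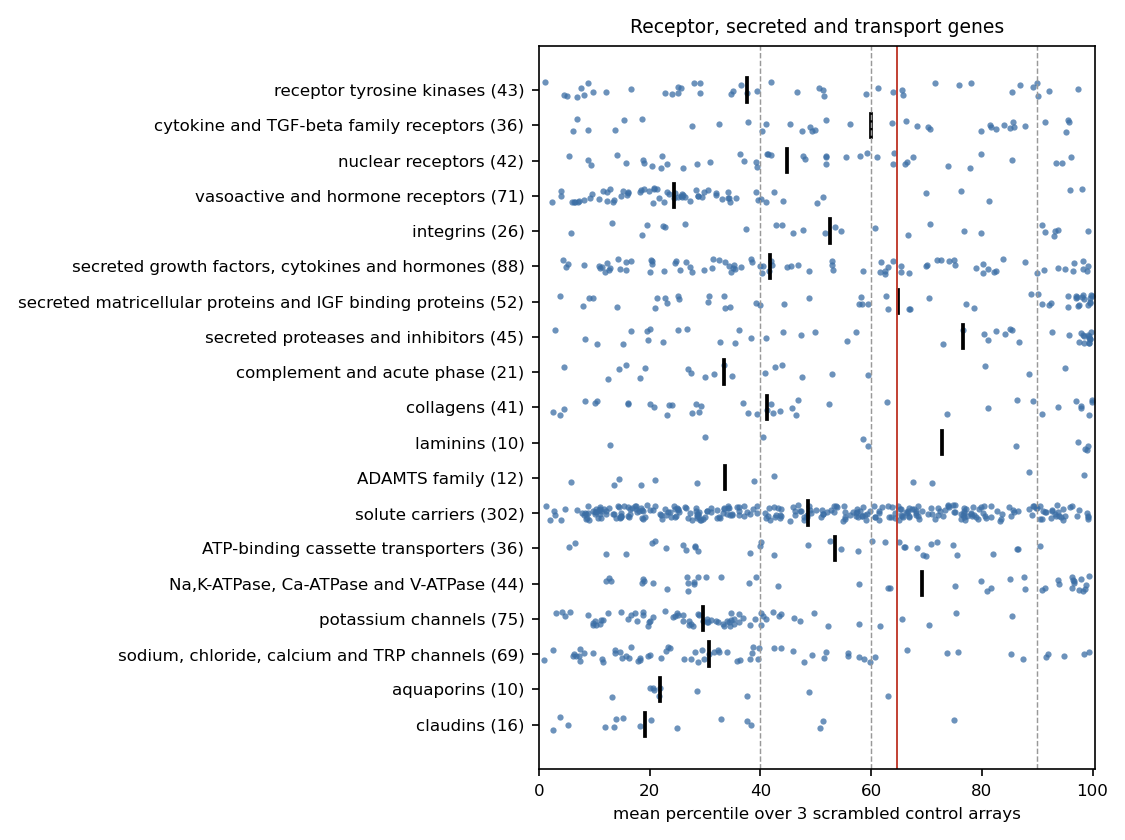
Mean percentile over the 3 scrambled control arrays (horizontal axis) of every measured gene of 19 lists and families of receptors, secreted proteins, matrix and transport; each point is a gene, the number of genes stands in brackets, black bars are medians, dashed lines mark percentiles 40, 60 and 90 and the red line the median of all genes. The median of the vasoactive and hormone receptors lies at 24.4 and that of the secreted proteases and inhibitors at 76.6.

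Secreted proteins of the matrix and protease inhibitors were among the brightest transcripts of the cells. Of 52 matricellular and growth factor binding proteins 19 were top (36.5% against 15.5%), 28 high and 14 low. Spp1 and Sparc, given as markers of these cells, are among the 19 top genes. The high share, 53.8%, and the low share, 26.9%, lay near the 53.4% and 27% of all genes. Igfbp2, a binding protein of insulin-like growth factors, gave 12672, 13850.0 and 14005. Ccn2 (connective tissue growth factor) gave 13079, 12702 and 13579. Eln (elastin) lay at 98.5, Igfbp7 at 98.3, Bgn (biglycan) at 98.1 and Mgp (matrix Gla protein) at 95.5. The microfibril proteins differed among themselves, since Mfap5 was among the 30 brightest genes while the fibrillins Fbn1 (25.2) and Fbn2 (21.3) were low. Igfbp1 gave 7.09, 5.85 and 6.29, Vtn (vitronectin) 7.84, 4.33 and 4.899 and Vcan (versican) lay at 9.81.

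Of 41 collagen chains 13 were high and 17 low, 31.7% and 41.5% against 53.4% and 27% of all genes. Col4a5, a basement membrane chain, gave 9799, 10773 and 10894. Col4a1 and Col4a2, the chains of most basement membranes, lay at 86.4 and 73.6, and Col4a4 and Col4a6 at 24.1 and 8.23. Col14a1 (97.8), Col16a1 (97.8) and Col12a1 (97.1), which bind to fibrils, were top. The chains of type VI collagen, a collagen of most connective tissues, Col6a1 (29.3), Col6a2 (36.8) and Col6a3 (39.4), were not high. Among laminins the chains Lamc1 (99.1), Lamb2 (98.6) and Lamb1 (97.4) joined Lama5 in the top class, and Lama4 (12.7) was low.

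Proteases and their inhibitors had the highest median of the secreted lists, with 15 of 45 top (33.3% against 15.5%), 24 high and 14 low. The high share, 53.3%, and the low share, 31.1%, lay near the 53.4% and 27% of all genes. The lysosomal cathepsins Ctsl and Ctsb gave 11779, 12849 and 12577 and 10514, 10743 and 10917. Pcolce, which speeds the trimming of procollagen, gave 10908, 12129.5 and 11973. Serpinh1, the chaperone of collagen, gave 10314, 10749.8 and 10617, while its other probe set lay at percentile 46.2. These genes of collagen handling stood beside the fibril collagens in the top class. Plat, the tissue plasminogen activator, lay at 98.5, and its relative Plau (urokinase) at 19.7, with the urokinase receptor Plaur at 86.8. The other probe set of Plaur lay at 38.9. Of the matrix metalloproteases the membrane form Mmp14 lay at 97.98, Mmp2 at 44.1 and Mmp9 at 19.5. Mmp7 was the lowest of the list, with 3.04, 2.51 and 1.91.

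Of 88 growth factors, cytokines and hormones 31 were high and 35 low, 35.2% and 39.8% against 53.4% and 27% of all genes. Fstl1, a follistatin-like protein, gave 9314, 8955 and 8948. Sema3c, a guidance factor, gave 7881, 7977 and 8602. Tgfb3, a form of transforming growth factor beta, gave 5658, 5860.4 and 6274, whereas Tgfb2 lay at 78.9 and Tgfb1 at 63.1. Cxcl1, which attracts neutrophils, gave 6087, 6074 and 5462. Vegfc (96.5), Slit2 (95.1), Mdk (91.3), Bmp4 (87.8) and Edn1 (endothelin 1, 80.2) were high. Of the Egfr ligands Egf lay at 41.8, Hbegf at 93.8, Btc at 75.2, Areg at 74.9, Ereg at 58.4 and Tgfa at 35.5. Agt (angiotensinogen) was low, and Il6 lay at 11.4, Tnf at 12.3 and Il1b at 12.9. Epo (erythropoietin) gave 2.03, 4.44 and 3.56, and Hgf (hepatocyte growth factor) 1.62, 5.396 and 4.09, both low. Of 21 complement and acute phase genes C1r (94.96), C1s (88.5) and Cp (ceruloplasmin, 80.5) were high (14.3%). Another 11 were low (52.4%), among them C3 (34.9) and the 3 chains of C1q below percentile 40 on average.

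The ADAMTS family to which the studied gene belongs had 4 high and 6 low genes of 12. These shares were 33.3% and 50%, against 53.4% and 27% of all genes. After Adamts1 came Adamts10, a protein of microfibrils, with 1466, 1473 and 1429. Adamts7 gave 433, 495 and 551. Adamts4, an aggrecanase, gave 419, 402 and 401. Adamts6 (42.5) and Adamts9 (38.9) lay between the classes. Adamts5, another aggrecanase, lay at 28.5, Adamts15 at 21.04, Adamts12 at 18.4 and Adamts8 at 14.4, with Adamts16 below them. Adamts19 was the lowest, with 2.16, 4.097 and 6.73. Adamts5, Adamts9 and Adamts10 had 2 probe sets each and the others a single one.

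Markers of cell types that a kidney line should not hold were mostly low, and Cd14 alone was high. Of 17 endothelial genes 14 were low (82.4% against 27% of all genes) and none high. Pecam1 lay at 9.43 and Vwf at 30.8, and the summed signal of the 17 genes was 862 to 933. Of 19 neuronal and muscle genes 12 were low (63.2%) and none high, with sums of 1041 to 1154. Of 19 immune genes 12 were low (63.2%), with Ptprc (CD45), carried by nearly all white blood cells, at 2.03, 4.095 and 8.07. Cd14, the co-receptor for bacterial lipopolysaccharide known from monocytes, gave 5688, 6161 and 5758. Without it the immune list summed to 999.6 to 1112, and with it to 6753 to 7161. By its brightest probe set, no gene of these 3 lists, and none of the fibroblast list, was under a signal of 1 on any array. That value served as floor before logarithms. The other probe set of Ptprc gave 0.648 on replicate 3.

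Genes of the cell cycle were mostly high. Of 39 cell cycle genes 33 were high, 84.6% against 53.4% of all genes. Cdk4, a kinase of the G1 phase, gave 5077, 5272 and 5731. Pcna, a clamp of replication, gave 4688, 4827 and 5164. Ccnd1 (cyclin D1) gave 4482, 4511 and 4769, and Cdk1, the kinase of mitosis, gave 2770.2, 2951 and 2872. Mki67 (88.3) and Top2a (90.6) were high as well. The inhibitor Cdkn1b gave 4995, 5036 and 4998, in the top class, while the inhibitors Cdkn2a and Cdkn2b gave 0.839, 20.3 and 6.62 and 5.21, 30.97 and 45.4. Both inhibitors were low on all arrays, and Cdk6 (31.4) was low too.

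Annexins and S100 proteins were mostly bright, with 14 of 24 genes top (58.3% against 15.5% of all genes). Anxa3 gave 12819, 13507 and 13668 and S100a11 12467, 13312 and 13169. The S100 proteins of white blood cells, S100a8 and S100a9, were low, at 10.4 and 13.3, as was S100g (calbindin of the distal tubule and gut) at 26.9.

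**Figure D4:**
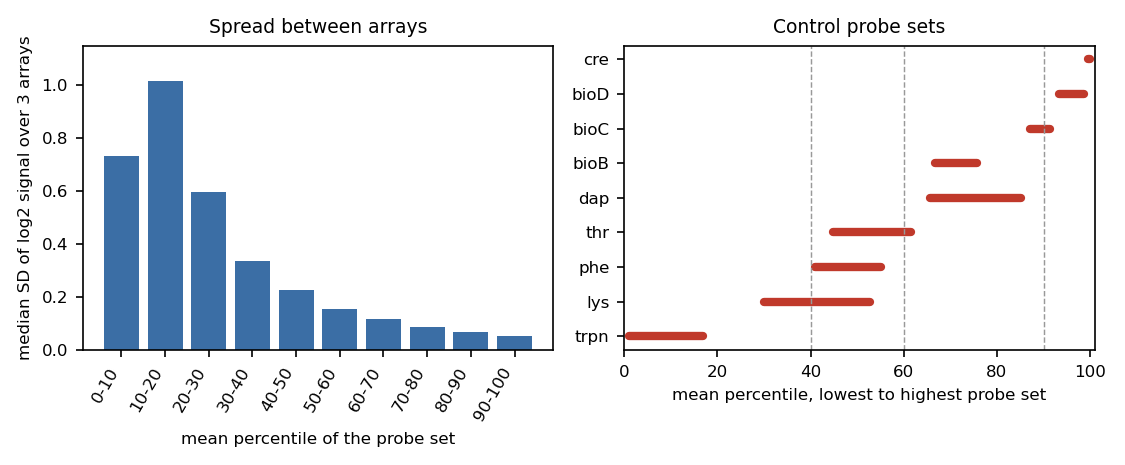
Left, median SD of the log2 signal over the 3 scrambled control arrays (vertical axis) for probe sets grouped by mean percentile in steps of 10 (horizontal axis); right, the range of mean percentiles (horizontal axis) of each kind of control probe set, with dashed lines at 40, 60 and 90. The SD falls from 1.02 at percentiles 10 to 20 to 0.053 at 90 to 100, and the trpn control probe sets lie below percentile 16.9.

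The 3 arrays were alike enough to place most genes, and the lowest signals carried little order. Over all probe sets the arrays correlated in rank at 0.975 to 0.976. The median SD of log2 signal was 0.053 at percentiles 90 to 100, 0.156 at 50 to 60, 0.338 at 30 to 40 and 1.02 at 10 to 20. Within the low class the order of genes therefore carries little information. The trpn control probe sets lay at signals of 1.06 to 16.9, and the bioB probe sets, the faintest of the hybridisation spikes, at 387 to 666. Cdh1 (5.13 ± 4.03, SD, n = 3), Umod (16.00 ± 6.81) and Cubn (11.4 ± 10.5) had mean signals within the range of the trpn probe sets. The ratio of the 3′ to the 5′ probe set was 1.74 to 1.79 for beta-actin and 0.908 to 0.948 for GAPDH, and 2.39 to 2.98 for hexokinase, highest in replicate 3.

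High genes that differed most between the arrays were few, and replicate 3 stood apart in 8 of the 10 largest. Jund, an AP-1 transcription factor, gave 1995, 2052 and 6534, the largest ratio between arrays of any high gene ranked. Genes whose symbol starts with LOC or RGD and digits were not ranked here. Sv2b, a protein of synaptic vesicles, gave 4173, 2764 and 1748. The lowest probe sets of Jund and Sv2b lay at percentiles 12.2 and 10.1. Slc39a1, a zinc importer, gave 1333, 1173 and 2526. Nipsnap2, Cnn2 (calponin 2) and Frat2 were also brightest in replicate 3, and RT1-CE16 (a class I molecule) and Arhgap5 were dimmest there. In Zc3h7a and Bcl2l1 (an inhibitor of apoptosis) replicate 2 stood apart. Of the genes described in the lists above only Cnn2 and Slc39a1 were among these 10.

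A low rank does not show that a transcript is absent. Rps13, Rpl30 and Rpl28, which every cell needs for its ribosomes, lay at 51.3, 47.97 and 38.6 by the probe sets that carry their symbol alone, while probe sets that share their symbols with others lay between 99.3 and 99.9. Genes with more than 1 probe set were high in 65.9% of cases and genes with a single one in 47.5%. Of the 4525 genes with more than 1 probe set, 820 (18.1%) had a probe set above percentile 60 and another below 40. Such genes named above include Srf, Slit2, Slc8a1, Synpo, Nr2f2, Pkd2, Sox4 and Itga6. Cdh1, Cdh2 and Slc34a1 were low by each of their probe sets, while Epcam, Cdh16, Krt18, Umod and Adamts16 rest on 1.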

How the data were processed

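RNA of 3 cultures was measured on Affymetrix rat arrays, 1 array each, and the samples were grouped by their titles. The deposited intensity values, 1 linear signal per probe set in arbitrary units, were made by the authors with GCOS 1.4, per the submitters' processing notes. It used background, summary and scaling settings not given in the sources used here. Detection calls were not used here. Trimmed by 2% of probe sets at either end, each array had a mean of 500.1, so the arrays were already scaled alike. Arrays have no read depth, and their number of 3 limits the precision.

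Of 31099 probe sets 57 are controls. By the platform's annotation 20826 of the rest carry 1 symbol, 436 carry several and 9780 carry none, and genes were named from the first kind. Their Entrez identifiers were matched to GRCr8 gene names for 20758 probe sets, which changed 0 symbols. Ranks ran over 31042 probe sets (ties at their mean rank) in Python 3.11.15 with pandas 2.3.3, and any scaling that keeps the order within an array leaves them as they are. Signals under 1 were set to 1 for the log2 spread only. Everything is a description of 3 arrays with no test and no p-value. The percentile classes were tested on simulated signals, and the list counts were not. Every simulated signal had the median spread of the brighter probe sets. The wider spread of low signals was therefore not simulated, and the test cannot judge the low class. Promoters came from RefSeq (GRCr8), the first entry of a gene, found for 11700 genes (82.3%).

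The genes, lists and class limits were chosen with earlier results of these data known. List shares set beside those of all genes are therefore descriptions only. Named genes were the 30 of highest mean percentile, list members (signals per array for the 5 highest and 3 lowest of a list, and for others where the text turns on them), Adamts16 and the markers, the 10 high genes that differed most between arrays, and the 5 brightest probe sets without a symbol. Of 7 columns the 4 of other treatments were not used. Alternatives were other class limits, the median over a gene's probe sets, leaving out probe sets that may match several transcripts, ranks among named probe sets only, mean percentiles, 50 probe sets in place of 100, quantile normalization and leaving out each array.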

Additional observations from a re-analysis of the deposited data

How the results depend on the processing

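List counts moved most with the limit of the low class. With low set below percentile 30 in place of 40, all genes had 2479 low genes in place of 3834, the mesenchymal and contractile list 4 in place of 11, the proximal transporters 15 in place of 25, the proximal endocytosis and metabolism list 12 in place of 20, the collecting duct 10 in place of 18, the vasoactive and hormone receptors 37 in place of 56, the matricellular proteins 8 in place of 14 and the proteases and inhibitors 9 in place of 14. High proximal transporters numbered 4, against 7 with high set above percentile 50, and 2 with it set above 70, by the median of the probe sets of a gene, or with ranks among probe sets with 1 symbol. The proximal endocytosis and metabolism list had 10 high genes above percentile 50 in place of 6. The 50 brightest probe sets held 4.56% of the signal, against 8.22% for 100. The other 162 recomputed values of these 10 lists and of the signal share, leaving out each array among them, stayed within 1.5 times the count or 1 SD of the share. Over all genes and the other lists and families 52 recomputed counts moved by more than 1.5 times, of which 18 were low counts with low set below percentile 30, 7 high counts with high above 50 and 7 with it above 70. Below percentile 30 the fibroblast list had 3 low genes in place of 8, the mesenchymal transcription factors 4 in place of 8, the endothelial markers 9 in place of 14, the immune markers 7 in place of 12, the growth factors 21 in place of 35, the potassium channels 27 in place of 51 and the keratins 6 in place of 12. High nuclear receptors numbered 7 in place of 13 above percentile 70 and with ranks among probe sets with 1 symbol, and 8 by the median of the probe sets of a gene. High regulators of kidney development numbered 2 in place of 5 above percentile 70 and 8 above 50, and no aquaporin was high above 70 where Aqp1 had been. Leaving out an array moved 1 count, that of high epithelial transcription and splicing regulators, from 1 to 2 without replicate 3. Of the 30 brightest genes 29 to 30 were shared without any 1 array, and 25 without probe sets ending in _s_at, _x_at or _a_at. No paired analysis was possible because a single group is described and no groups are compared. Signals near those of the trpn controls limit what can be said of the lowest genes, since their order differs between arrays.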

Other observations

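A few bright genes belong to none of the lists and were chosen after their values were seen. Msln (mesothelin), a surface protein known from mesothelium and some carcinomas, gave signals of 9522, 9495 and 10154, at percentile 99.3. Lrrn4, a neuronal leucine-rich repeat protein that is also used as a mesothelial marker, gave 7163, 8163 and 8116. Calb2 (calretinin), another mesothelial marker, gave 11.7, 13.2 and 6.61, in the low class, and Wt1 lay at 38.4 and Krt7 at 33.7. So 2 of these 5 genes were top, and the 5 together do not name a cell type. Upk1b, a plaque protein of the urothelium, gave 1059, 1039 and 1011, high but below the top class.

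Car9, a carbonic anhydrase induced when oxygen is short, gave 8508, 9172 and 10536, and replicate 3 was the highest. Rhox5, a homeobox gene of the X chromosome known from testis and placenta and from tumour lines, gave 8689.9, 9067 and 9232. Duox2, an oxidase that makes hydrogen peroxide in thyroid and mucosal epithelia, gave 7275, 7315 and 7889. All 3 genes were top on all 3 arrays, each by a single probe set.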
